A study of Mus musculus with 12 samples.

Results

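The genes of the core of Polycomb Repressive Complex 1 (PRC1) were followed across the immune cells of MC38 tumors. The 9 genes were Rnf2 and Ring1, which encode the RING ubiquitin ligases, Bmi1, Pcgf1, Pcgf5 and Pcgf6, which encode PCGF partners of these ligases, and Cbx2, Cbx7 and Cbx8, which encode chromobox proteins. They were taken by symbol from a given list, out of 31053 genes in the count matrix, and each symbol was found once. Only their level by cell class and library was measured, and no treatment effect was computed.

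PRC1 places ubiquitin on lysine 119 of histone H2A through RING1A (Ring1) or RING1B (Rnf2), each paired with 1 PCGF protein. The PCGF partner sets the kind of complex: BMI1 (Pcgf4) and MEL18 (Pcgf2) pair with chromobox and PHC proteins in canonical PRC1, whereas PCGF1, PCGF3, PCGF5 and PCGF6 occur in variant complexes with RYBP or YAF2. The chromobox proteins bind the H3K27 trimethyl mark that EZH2, the methyltransferase of PRC2, lays down, so canonical PRC1 acts downstream of the enzyme that was inhibited in this study.

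MC38 is a mouse colon adenocarcinoma line. C57BL/6 mice carried subcutaneous MC38 tumors and were dosed daily, also under the skin, with vehicle or with the EZH2 inhibitor (EZH2i) PF-06821497 at 100 mg/kg for 7 or 16 days, and CD45+ cells were taken with magnetic beads on day 17. The 4 groups (vehicle for 7 days, EZH2i for 7 days, vehicle for 16 days and EZH2i for 16 days) had 3 mice each. All 12 mice carried the tumor, no tumor-free or untreated group was analysed here, and the cells came from the tumor only. The barcodes of the pooled matrix end in a library number from 1 to 12 that no label ties to a mouse or a group. The study's methods state how many cells each group gave after filtering, but libraries were not assigned to groups from their order or number of barcodes, so those below are numbered, unassigned samples.

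The 12 libraries held 4256 to 38110 barcodes (140639 in all), of which 128912 passed the filters, and the median UMI count per kept cell ranged from 2291 in library 6 to 15081 in library 12. Libraries 1 to 6 had 128 to 209 CPM (UMIs of a gene per 1000000 UMIs of all genes in the cells counted) from 4 Y-linked genes and at most 5 Xist UMIs each, while libraries 7 to 12 had 658 to 870 CPM of Xist and 0 Y-linked UMIs. The study's methods name female mice, so libraries 1 to 6 go against that statement. Ratios to macrophages are also given within each set of 6 libraries for Pcgf5 in dendritic cells and Cbx7 in T cells only. Library 4 stood apart with 41 T cells and 1239 of the 3371 neutrophils. Of 138353 barcode sequences, 2261 occurred in more than 1 library, and 3.21% of the kept cells carried 1 of them.

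Cells were assigned by UMIs of lineage genes to 7 classes: 7177 T cells, 463 NK cells, 355 B cells, 1758 dendritic cells, 83470 macrophages, 2386 monocytes and 3371 neutrophils. Of the marker genes kept out of the gates, all 5 of the T, NK, B, macrophage and neutrophil lists were highest in their own class. For dendritic cells this held for 3 of 5 genes, 1 being highest in B cells and 1 in neutrophils. The dendritic list summed to 775 CPM in neutrophils, above the 691 in dendritic cells. For monocytes it held for 2 of 5, the other 3 being highest in neutrophils. The labels of these 2 classes thus rest mainly on the gate genes. Levels are CPM over the cells of a class. Each transcript gives 1 tag at its 3' end, so CPM was compared between genes without division by length. A value summed over libraries carries an exact 95% Poisson interval in brackets, which covers counting error only. Counts of libraries above or below compare the CPM as measured. Library values are given as the lowest, median and highest over libraries with at least 50 cells of the class, which leaves 2 libraries for NK and for B cells. As libraries were not assigned to treatment groups, values are not given by group, and differences between classes are given as counts and ranges over libraries, without p-values.

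**Figure D1:**
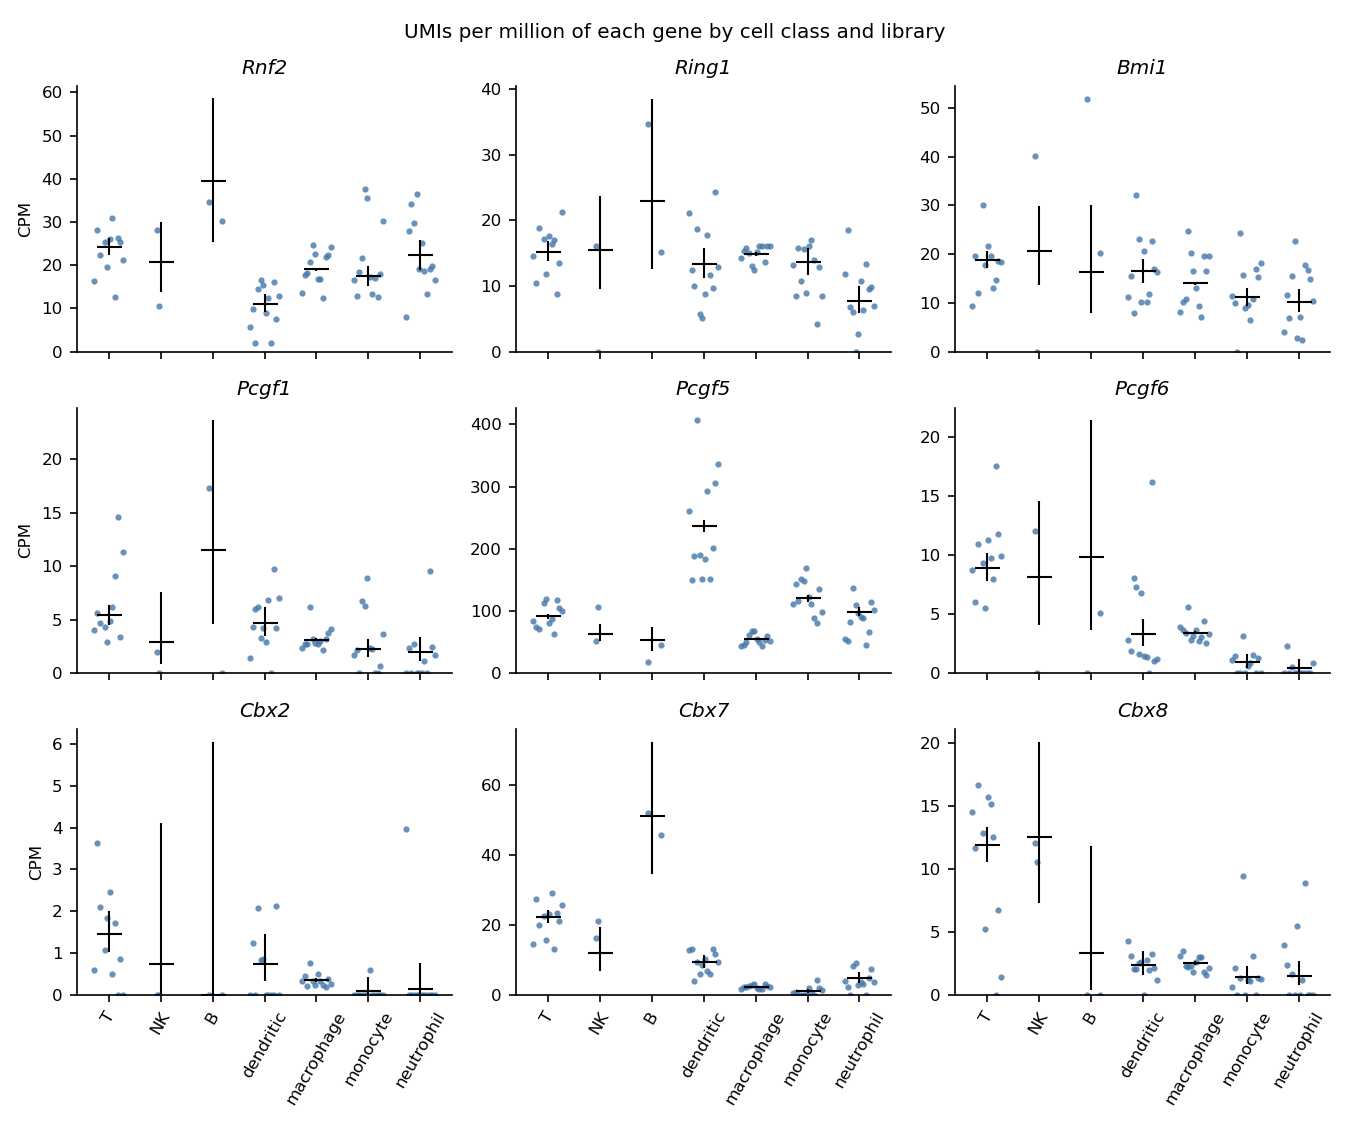
Level in CPM (y axis, linear, 1 panel per gene with its own scale) by cell class. Each point is 1 library with at least 50 cells of the class, and the horizontal mark with its bar is the sum over libraries with its 95% Poisson interval. Pcgf5 has the highest scale, with dendritic cells at 237 CPM, and the T cell points of Cbx7, from 13.1 to 29.0 CPM, lie above the macrophage points, from 1.55 to 2.98.

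Rnf2 (chr1:151458004-151500955, minus strand, GRCm38) encodes RING1B, the main H2A ubiquitin ligase of PRC1. Its level was 24.3 CPM [22.4 to 26.3] in T cells, 19.1 [18.7 to 19.4] in macrophages and 11.1 [9.19 to 13.2] in dendritic cells, the lowest class. By library, macrophages ranged from 12.4 to 24.6 CPM with a median of 19.4, and dendritic cells from 1.96 to 16.6 with a median of 11.1. The 2 ranges overlapped, but within a library the dendritic value was below the macrophage value in 12 of 12 libraries, with a median log2 ratio of -0.80. T cells were above macrophages in 9 of 11 libraries by a median of only 0.28 on the log2 scale. B cells had the highest Rnf2 level, 39.4 CPM [25.2 to 58.6] from 24 UMIs, an interval that overlapped that of T cells.

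Ring1 (chr17:34020792-34024680, minus strand), which encodes RING1A, differed little between T cells and the phagocytes other than neutrophils. It stood at 15.2 CPM [13.7 to 16.8] in T cells, 14.8 [14.5 to 15.1] in macrophages, 13.4 [11.3 to 15.7] in dendritic cells and 13.6 [11.7 to 15.7] in monocytes. Macrophage libraries ran from 12.4 to 16.2 CPM with a median of 15.3, the narrowest spread of any member in this class at 1.30-fold. The T cell to macrophage log2 ratio was 0.05, and its sign changed under the edgeR TMM scaling (-0.14), with the DESeq2 size factors (-0.01) and in cells with no UMI of the cycling genes (-0.08), so no direction can be given. Neutrophils were lowest at 7.68 CPM [5.82 to 9.95], below macrophages in 11 of 12 libraries. Their summed log2 ratio to macrophages was -0.94, beside a median of -0.73 over all genes tested in that comparison. Rnf2 in neutrophils was 22.2 CPM [19.0 to 25.9]. Rnf2 made up 74.3% [68.1 to 79.9] of their joint UMIs in neutrophils, 56.2% [55.5 to 56.9] in macrophages and 45.3% [39.2 to 51.5] in dendritic cells, and in B cells 63.2% [46.0 to 78.2] of 38 UMIs.

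Among the PCGF genes, Pcgf5 had the highest level and the clearest difference between myeloid classes. Pcgf5 (chr19:36348309-36460970, plus strand) encodes the PCGF partner of a variant complex that ubiquitinates H2A widely across the genome. It stood at 237 CPM [228 to 246] in dendritic cells, 120.3 [114 to 126] in monocytes, 98.8 [91.7 to 106] in neutrophils, 91.5 [87.7 to 95.3] in T cells, 63.6 [50.9 to 78.5] in NK cells, 54.3 [53.7 to 54.9] in macrophages and 52.5 [35.9 to 74.2] in B cells. Of neighbours in this order, neutrophils and T cells, NK cells and macrophages, and macrophages and B cells had overlapping intervals. Among dendritic cells the lowest library was 2, at 149.85 CPM, the median was 195 and the highest was library 4, at 408. Macrophages ranged from 44.0 to 67.8 with a median of 51.8, so the library ranges of dendritic cells and macrophages did not overlap. The dendritic to macrophage log2 ratio was 1.93 at the median (3.82-fold), from 1.17 to 2.72, above 0 in 12 of 12 libraries. It was 1.83 in libraries 1 to 6 and 2.16 in libraries 7 to 12, and without library 4 dendritic cells stood at 220.2 CPM and neutrophils at 86.3. Monocytes were above macrophages in 12 of 12 libraries as well, by 2.27-fold at the median, and neutrophils by 1.66-fold. The T cell to macrophage ratio was 1.72-fold, above 1 in 11 of 11 libraries.

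Most Pcgf5 UMIs of dendritic cells, 2067 of 2585, came from 1 subset. In the 683 dendritic cells with UMIs of both Fscn1, the actin bundler fascin, and Cacnb3, a calcium channel subunit, the Pcgf5 level was 523 CPM [500.4 to 546]. It was 80.3 CPM [73.1 to 88.0] in the 816 dendritic cells with Xcr1 or Clec9a, receptors of cross-presenting dendritic cells, 61.8 [44.9 to 83.0] in 132 cells with Siglech, a plasmacytoid marker, and 62.3 [44.7 to 84.5] in 106 cells with Cd209a. By library the Fscn1 and Cacnb3 cells ranged from 299.6 to 666 CPM with a median of 491, and the Xcr1 or Clec9a cells from 56.7 to 197 with a median of 77.0. The ranges did not overlap, since the lowest library of the first subset lay above the highest of the second. Leaving out 40 cells that met both definitions, the log2 ratio between the subsets was 3.40 at the median (10.6-fold), from 2.28 to 4.29, and all 10 libraries holding 20 or more cells of each subset were above 0. A Pcgf5 UMI was found in 80.2% [77.0 to 83.2] of the Fscn1 and Cacnb3 cells and in 27.5% [24.4 to 30.7] of the Xcr1 or Clec9a cells, with similar depth (medians of 4381 and 4903.5 UMIs per cell). These subsets were examined for Pcgf5 after its values in them had been seen. Fscn1, Cacnb3, Xcr1, Clec9a, Siglech and Cd209a are also gate genes of the dendritic class.

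Some markers of other cells were higher in this subset. The 5 tumor or stroma genes were Krt8, Krt18, Epcam, Col1a1 and Sparc. They summed to 227 CPM in the Fscn1 and Cacnb3 cells, 33.5 in the Xcr1 or Clec9a cells and 11.2 in macrophages. Col1a1 (123 against 4.78 CPM) and Sparc (97.9 against 4.43) were higher in the Fscn1 and Cacnb3 cells than in the Xcr1 or Clec9a cells. Epcam was lower (6.07 against 23.7), Krt18 stood at 0.759 against 0.354 and Krt8 at 0 against 0.177. In the 629 of the 683 cells without a UMI of these 5 genes, Pcgf5 stood at 568 CPM [542 to 594]. The 5 macrophage check genes summed to 1533 CPM in the Fscn1 and Cacnb3 cells and 804 in the Xcr1 or Clec9a cells, with none at 0, and their part in the Pcgf5 difference was not tested. Of the 5 dendritic check genes, Batf3 (280.4 against 149 CPM) and Il4i1 (375 against 28.5) were higher in the Fscn1 and Cacnb3 cells, and Kmo (2.78 against 56.9), H2-DMb2 (49.6 against 113) and Cd24a (55.6 against 252) were lower. The dendritic cells outside the subset had a Pcgf5 level of 74.4 CPM [68.1 to 81.1], above that of macrophages and below those of monocytes and neutrophils. Without library 4, neutrophils stood at 86.3 CPM [78.8 to 94.3], an interval that overlapped that of these dendritic cells. Cycling dendritic cells (328 cells, defined below by cell cycle genes) had 87.4 CPM [77.2 to 98.5] of Pcgf5 and non-cycling ones (1208 cells) 310.5 [297 to 325], lower in cycling cells in 6 of 6 libraries, and the part of the subsets in this was not tested.

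**Figure D2:**
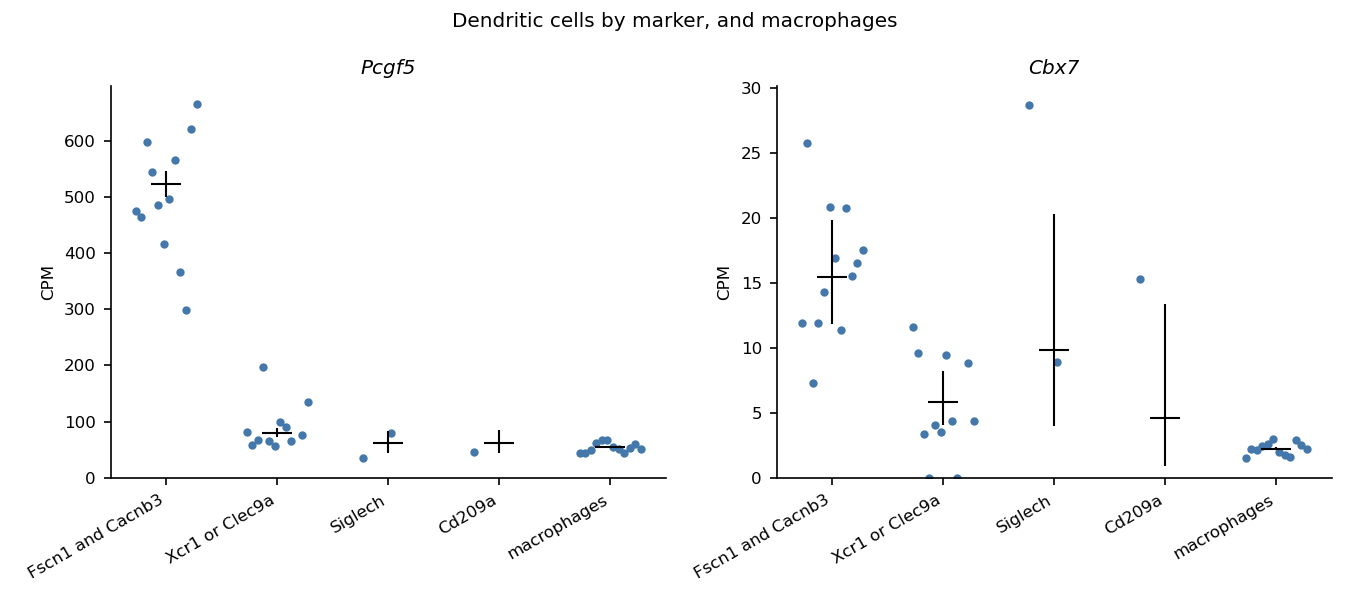
Pcgf5 and Cbx7 in CPM (y axes, linear from 0) in dendritic cells divided by marker UMIs and in macrophages. Points are libraries with at least 20 cells of a subset (12, 11, 2 and 1 libraries from left to right) and the 12 libraries of macrophages, and marks with bars are sums with 95% Poisson intervals. The Fscn1 and Cacnb3 cells reach 523 CPM for Pcgf5 and 15.4 CPM for Cbx7, against 80.3 and 5.85 in the Xcr1 or Clec9a cells.

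Pcgf5 has 3 annotated starts in the RefSeq promoter table (GRCm38.p6), and 3' tags do not tell which of them was used. The windows of 250 bases before to 50 bases after each start are shown because the starts differ in base composition, with that of Cbx7, the gene with the largest T cell to macrophage ratio, beside them. Capitals mark CG dinucleotides, the feature that CpG island promoters share and that the CXXC protein KDM2B of the PCGF1 complex binds:
Pcgf5 start 1, chr19:36348079-36348378, plus strand: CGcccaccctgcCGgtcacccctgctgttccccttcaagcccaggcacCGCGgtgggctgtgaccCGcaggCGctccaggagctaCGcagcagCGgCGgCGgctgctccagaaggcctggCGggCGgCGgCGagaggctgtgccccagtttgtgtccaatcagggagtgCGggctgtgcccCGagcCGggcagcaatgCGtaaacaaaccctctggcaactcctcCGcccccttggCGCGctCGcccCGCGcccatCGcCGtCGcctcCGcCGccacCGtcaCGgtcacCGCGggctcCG
Pcgf5 start 2, chr19:36378817-36379116, plus strand: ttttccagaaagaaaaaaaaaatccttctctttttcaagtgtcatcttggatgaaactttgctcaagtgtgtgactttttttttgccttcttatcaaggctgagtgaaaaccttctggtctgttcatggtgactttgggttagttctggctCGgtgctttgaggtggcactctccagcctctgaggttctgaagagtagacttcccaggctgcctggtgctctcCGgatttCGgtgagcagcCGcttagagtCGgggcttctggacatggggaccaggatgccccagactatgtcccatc
Pcgf5 start 3, chr19:36409498-36409797, plus strand: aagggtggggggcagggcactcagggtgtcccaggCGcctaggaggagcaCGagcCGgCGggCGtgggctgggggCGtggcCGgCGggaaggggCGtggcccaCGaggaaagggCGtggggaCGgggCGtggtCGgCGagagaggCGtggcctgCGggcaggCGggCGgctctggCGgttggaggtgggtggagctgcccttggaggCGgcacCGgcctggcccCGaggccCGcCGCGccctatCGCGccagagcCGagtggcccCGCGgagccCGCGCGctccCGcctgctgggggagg
Cbx7, chr15:79932597-79932896, minus strand: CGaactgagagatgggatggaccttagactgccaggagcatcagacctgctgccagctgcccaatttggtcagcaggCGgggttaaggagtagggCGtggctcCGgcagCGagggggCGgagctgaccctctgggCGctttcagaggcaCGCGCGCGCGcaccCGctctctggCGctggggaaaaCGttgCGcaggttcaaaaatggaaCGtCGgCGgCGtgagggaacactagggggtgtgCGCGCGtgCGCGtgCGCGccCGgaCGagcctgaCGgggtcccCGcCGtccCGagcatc

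The first and the third Pcgf5 windows held 34 and 35 CG dinucleotides and the second held 5, beside a median of 7 over 32851 promoters of the table, and Cbx7 held 33. The table matched 7 of the 9 genes, with 9 windows in all, and the other windows held 22 to 37 CG dinucleotides. Motifs were searched on both strands. The ETS core CCGGAA was in the Ring1 window (14.9% of all promoters hold it), the RUNX core TGTGGT in that of Pcgf6 (16.8%), the E-box CACGTG in those of Bmi1 and Cbx8 (7.15%), the E2F motif GGCGGGAA in the third Pcgf5 window (2.19%), and the NF-kappaB consensus in none of the 9 (4.51% of all promoters). These are letter matches in a fixed window.

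Bmi1 (chr2:18677018-18686629, plus strand), the PCGF partner in canonical PRC1 and a known repressor of Cdkn2a, had a wide range over libraries within a class. Over the classes it stood at 20.7 CPM [13.8 to 29.9] in NK cells, 18.9 [17.2 to 20.6] in T cells, 16.5 [14.2 to 19.1] in dendritic cells, 16.4 [7.87 to 30.2] in B cells, 14.01 [13.7 to 14.3] in macrophages, 11.1 [9.38 to 13.1] in monocytes and 10.2 [8.07 to 12.8] in neutrophils. Only the step from macrophages to monocytes had intervals that did not overlap. The NK value rested on 28 UMIs, 20 of them from library 5. The 2 libraries with at least 50 NK cells gave 40.2 CPM (library 5) and 0 (library 6), so the place of NK cells is not settled. Within macrophages the libraries ran from 7.18 CPM [6.42 to 8.02] in library 9 up to 24.8 [23.3 to 26.4] in library 4, around a median of 14.8, a 3.46-fold spread that counting error does not cover, and the part of treatment in it was not tested. The T cell to macrophage log2 ratio was 0.23, with 9 of 11 libraries above 0, and 0.07 under TMM scaling.

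Pcgf1 and Pcgf6 encode the PCGF partners of the BCOR and KDM2B complex and of the MGA and E2F6 complex, and both were low. Pcgf1 (chr6:83077869-83080855, plus strand) stood at 5.40 CPM [4.52 to 6.39] in T cells and 3.13 [2.99 to 3.27] in macrophages, and was higher in T cells in 10 of 11 libraries (median log2 ratio 0.90). Its other classes ranged from 2.02 CPM in neutrophils to 11.5 in B cells, the latter from 7 UMIs. Pcgf6 (chr19:47033617-47050906, minus strand) was higher in T cells than in the myeloid classes. It stood at 8.94 CPM [7.81 to 10.2] in T cells, 8.13 [4.06 to 14.6] in NK cells and 9.85 [3.61 to 21.4] in B cells, but at 3.43 [3.29 to 3.59] in macrophages, 3.30 [2.31 to 4.56] in dendritic cells and 0.907 [0.469 to 1.58] in monocytes, and neutrophils had 3 UMIs. The NK and B cell values rested on 11 and 6 UMIs. Each was above macrophages in 1 of 2 libraries, with the other at 0, and their intervals overlapped that of dendritic cells. T cell libraries ran from 5.49 to 17.5 CPM (median 9.77) and macrophage libraries from 2.51 to 5.60 (median 3.37), so that only the lowest T cell library lay within the macrophage range. Within libraries T cells were higher in 11 of 11, by 3.18-fold at the median, and monocytes were below macrophages in 11 of 12, with 5 monocyte libraries at 0.

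The share of each paralog shows the PCGF genes side by side. Pcgf5 made up 60.3% [59.9 to 60.7] of the UMIs of Bmi1, Pcgf1, Pcgf2, Pcgf3, Pcgf5 and Pcgf6 in macrophages and 63.4% [61.8 to 64.9] in T cells, but 85.9% [84.6 to 87.1] in dendritic cells, 82.2% [80.4 to 83.9] in monocytes and 83.6% [81.0 to 86.0] in neutrophils. Bmi1 took 15.6% in macrophages, 13.1% in T cells and 5.98% in dendritic cells. The dendritic shares lean on the Fscn1 and Cacnb3 cells, which held 2067 of the 2585 Pcgf5 UMIs. The other 1075 dendritic cells had 518 UMIs of Pcgf5, 93 of Bmi1, 34 of Pcgf1 and 26 of Pcgf6, and shares among them were not computed.

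**Figure D3:**
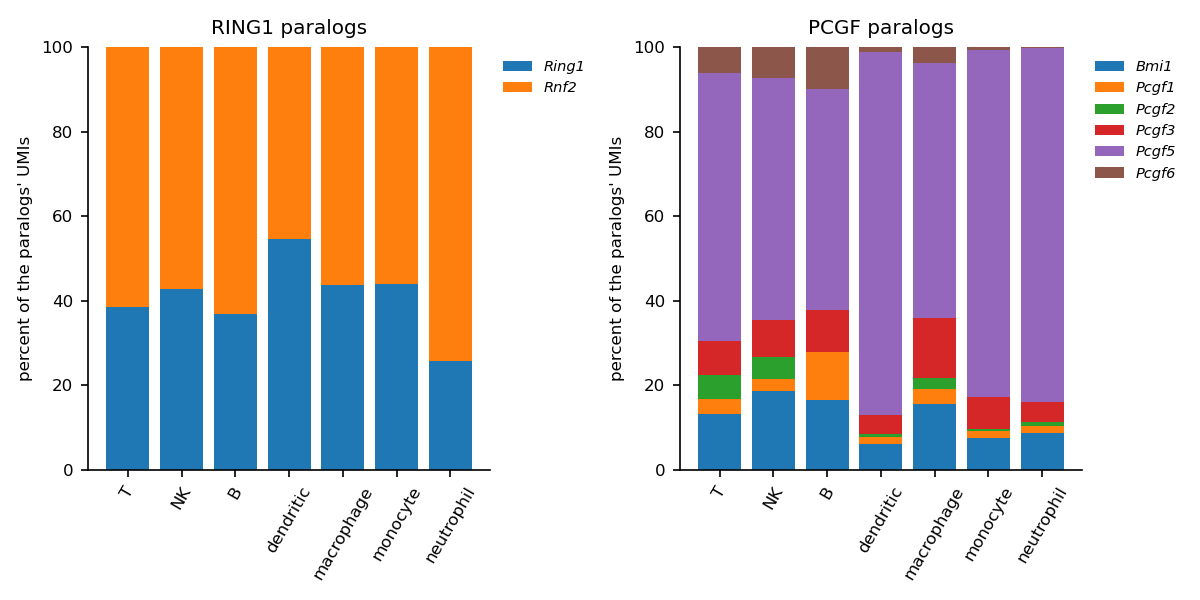
Share of UMIs (y axis, percent of the UMIs of the paralogs shown, from 0 to 100) of each RING1 and PCGF paralog in the 7 classes, summed over libraries. Pcgf5 fills 60.3% of the PCGF bar in macrophages and 85.9% in dendritic cells, where most Pcgf5 UMIs came from the Fscn1 and Cacnb3 cells. Rnf2 fills 74.3% of the RING1 bar in neutrophils.

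The chromobox members differed widely between classes. Cbx7 (chr15:79915807-79971119, minus strand) encodes a chromobox protein linked to self-renewal in blood cells. It stood at 50.9 CPM [34.6 to 72.2] in B cells, 22.2 [20.3 to 24.1] in T cells, 11.8 [6.76 to 19.2] in NK cells, 9.25 [7.53 to 11.2] in dendritic cells, 4.72 [3.28 to 6.56] in neutrophils, 2.21 [2.096 to 2.34] in macrophages and 0.907 [0.469 to 1.58] in monocytes. Only NK and dendritic cells were neighbours with overlapping intervals. The NK value rested on 16 UMIs. The 2 libraries with at least 50 NK cells gave 16.1 CPM (library 5) and 21.1 (library 6). T cells of these libraries gave 22.5 and 15.7 CPM, so the order of T and NK cells is not settled. Without library 4, neutrophils stood at 3.57 CPM [2.18 to 5.51] and macrophages at 2.20 [2.07 to 2.32], which overlapped. T cells ran from 13.1 CPM (library 9) through a median of 22.5 to 29.0 (library 8), and macrophage libraries from 1.55 to 2.98 (median 2.22). The T cell and macrophage ranges were far apart, and within libraries the log2 ratio was 3.22 at the median (9.31-fold), from 2.40 to 4.06, above 0 in 11 of 11. It was 3.22 in libraries 1 to 6 and 3.33 in libraries 7 to 12. The B cell level rested on 31 UMIs, and the 2 libraries with at least 50 B cells gave 45.5 and 51.9 CPM. Dendritic cells were above macrophages in 12 of 12 libraries (median 4.34-fold), and the Fscn1 and Cacnb3 cells had 15.4 CPM [11.8 to 19.8] against 5.85 [4.03 to 8.21] in the Xcr1 or Clec9a cells, higher in 10 of 10 libraries.

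Among T cells, Cbx7 was higher in the 764 CD4+ cells without Foxp3, at 33.3 CPM [27.2 to 40.3], than in the 3845 CD8+ cells, at 17.8 [15.7 to 20.1]. CD4+ libraries ranged from 6.65 to 53.4 CPM (median 36.4) and CD8+ libraries from 8.20 to 24.7 (median 14.8), so the ranges overlapped, with CD4+ above CD8+ in 7 of 9 libraries (median log2 ratio 0.95). Only 41 cells had a Foxp3 UMI, with 4 Cbx7 UMIs. The other members had overlapping intervals in CD4+ and CD8+ cells, although Rnf2, at 17.9 and 24.02 CPM, was lower in CD4+ cells in 9 of 9 libraries.

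Cbx8 (chr11:119036305-119040969, minus strand) and Cbx2 (chr11:119022962-119031270, plus strand) are neighbouring genes on opposite strands whose proteins act in canonical PRC1. Cbx8 stood at 12.6 CPM [7.32 to 20.1] in NK cells and 11.9 [10.6 to 13.3] in T cells, against 2.52 [2.39 to 2.65] in macrophages, 2.38 [1.56 to 3.49] in dendritic cells, 1.48 [0.740 to 2.65] in neutrophils and 1.44 [0.864 to 2.24] in monocytes. B cells gave 2 UMIs. T cells ran from 0 (library 10) through a median of 12.5 to 16.7 CPM (library 3), and macrophage libraries from 1.60 to 3.49 with a median of 2.29. The T cell range was wide and took in the macrophage range: the interval of library 10, with 0 UMIs in 154 T cells, reached 10.8 CPM, and library 12 had 1 UMI in 98 cells. T cells were above macrophages in 9 of 11 libraries, libraries 10 and 12 being below, with a median log2 ratio of 2.15 (4.45-fold).

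Cbx2 was at the edge of detection. It gave 36 UMIs in T cells, 1.45 CPM [1.02 to 2.01], and 206 UMIs in macrophages, 0.345 [0.2997 to 0.396], a summed ratio of 4.25-fold. In dendritic cells 8 UMIs gave 0.733 CPM [0.316 to 1.44], while NK cells, monocytes and neutrophils had 1 UMI each. B cells had 0 of 609114 UMIs, with an interval that reached 6.06 CPM. Macrophage libraries ran from 0.185 to 0.769 CPM (median 0.319) and T cell libraries from 0 to 3.62 (median 1.07), with 2 of 11 T cell libraries at 0. Within libraries T cells were above macrophages in the 9 with a T cell UMI. In libraries 1 and 11 a single T cell UMI gave 0.581 and 0.842 CPM, already above the macrophage values of 0.318 and 0.363. The count of 9 thus partly repeats which libraries had a UMI.

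**Figure D4:**
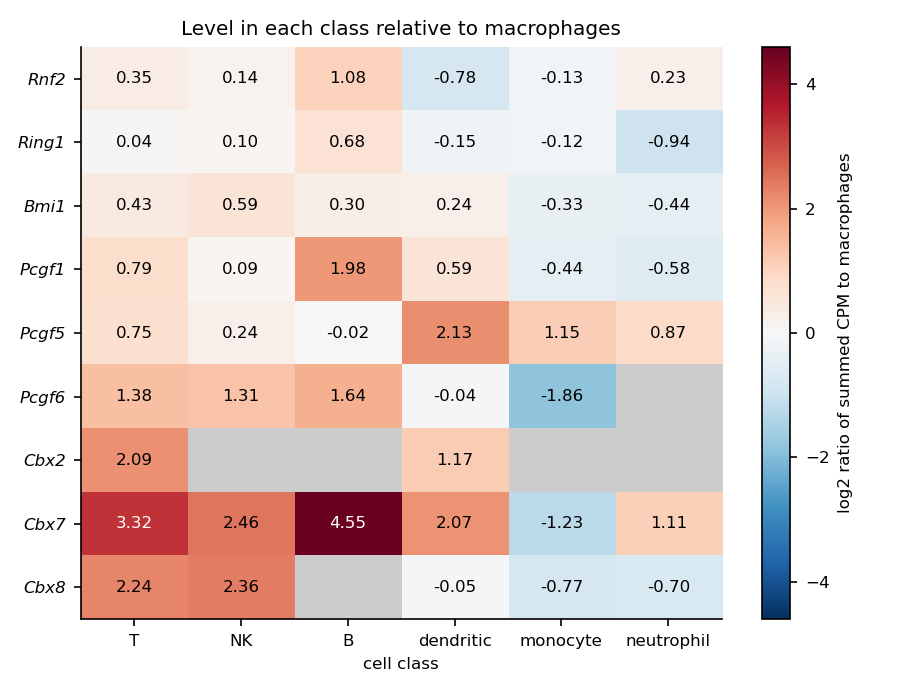
Log2 ratio of the summed CPM of each gene (rows) in 6 classes (columns) to that in macrophages, in colour and digits. Cells in grey had 3 UMIs or fewer in the class. Cbx7 runs from 4.55 in B cells to -1.23 in monocytes, while Ring1 stays between 0.68 and -0.94.

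Among genes with at least 50 UMIs in the 2 classes together and 5 CPM in 1 of them, 8 of the 9 members could be compared between T cells and macrophages, and 3 (Pcgf6, Cbx7 and Cbx8) were at least 2-fold higher in T cells, where 16.6% of 9865 genes were. None was 2-fold lower, where 16.8% of genes were. These 3 passed the limit of 5 CPM only through T cells and Pcgf1 likewise, so none of the 4 could have been called lower and these counts are a description. The same holds for Pcgf6, Cbx7 and Cbx8 in NK cells, Pcgf1, Pcgf6 and Cbx7 in B cells and Cbx7 in dendritic cells, all under 5 CPM in macrophages. In NK cells 3 of 7 (Pcgf6, Cbx7 and Cbx8) were higher (background 15.7%) and 0 lower (18.7%), and in B cells 4 of 7 (Rnf2, Pcgf1, Pcgf6 and Cbx7) were higher (17%) and 0 lower (25.8%). Pcgf6 in NK cells (11 UMIs) and Pcgf1 and Pcgf6 in B cells (7 and 6 UMIs) were each above macrophages in only 1 of 2 libraries. In dendritic cells 2 of 5 (Pcgf5 and Cbx7) were higher (11.8%) and 0 lower (13.2%). In monocytes 1 of 4 (Pcgf5) was higher (5.55%) and 0 lower (13.2%), and in neutrophils 0 of 4 were higher (13.3%) or lower (40.6%). The median log2 ratio of T cells to macrophages was 0.77 over the 8 members and 0.11 over all genes tested, and nothing is read from it, since 4 of the 8 entered through T cells.

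The T cell excess was also read from the share of cells with a UMI. Cbx7 was detected in 7.12% [6.54 to 7.74] of T cells and 1.54% [1.46 to 1.62] of macrophages, although macrophages were deeper (medians of 5529 and 2470 UMIs), and the lowest class was monocytes at 0.461% [0.230 to 0.823] with a median of 4188.5 UMIs. With every cell thinned to 1000 UMIs, the expected shares were 2.55% and 0.252%, a 10.1-fold ratio. Shallower cells were left out, 828 T cells and 580 macrophages. At that depth Cbx8 differed 4.77-fold, Pcgf6 2.87-fold and Ring1 1.02-fold between T cells and macrophages, close to the ratios of CPM. The thinned shares are computed from the same UMIs, so for genes this low the closeness follows by construction and adds no separate support. Pcgf5 was detected in 48.9% [46.6 to 51.3] of dendritic cells and 28.4% [28.1 to 28.7] of macrophages, and in 21.3% and 5.77% after thinning, which left out 30 dendritic cells. The lowest class for Pcgf5 was B cells at 8.17% with a median of 1297 UMIs. No class is known to lack these genes, so the share from free RNA was not measured. The 5 macrophage check genes summed to 5867 CPM in macrophages and to 602 in T cells, 710 in NK cells and 455 in B cells. They summed to 1031 in dendritic cells, 1076 in monocytes and 2104 in neutrophils. The part of macrophage RNA in the levels of these classes was not tested.

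Proliferating cells were then compared with non-proliferating cells of the same class, because Ezh2 and several polycomb genes are known to follow the cell cycle. Cells with UMIs of at least 2 of 8 cell cycle genes, Mki67 and Top2a among them, were set against cells with none. In T cells (1271 cycling and 4872 non-cycling), Cbx7 stood at 14.6 CPM [12.01 to 17.7] against 27.3 [24.6 to 30.3], lower in cycling cells in 9 of 9 libraries with a median log2 ratio of -0.88. Rnf2 stood at 17.8 CPM [14.9 to 21.1] against 28.0 [25.2 to 31.0], lower in 8 of 9 (median -0.78). Cbx2 went the other way, with 24 UMIs and 3.25 CPM [2.08 to 4.84] against 10 UMIs and 0.753 [0.361 to 1.38]. The intervals of these 3 genes did not overlap between the states, and those of the other 6 did. Cycling T cells were deeper, with a median of 4509 UMIs per cell against 2038, and the part of this difference in the result was not tested.

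In macrophages (20259 cycling and 48140 non-cycling, with medians of 9150 and 4265 UMIs) Cbx7 stood at 2.25 CPM [2.05 to 2.47] against 2.18 [2.01 to 2.37], intervals that overlapped, while within libraries it was higher in cycling cells in 9 of 12 with a median log2 ratio of 0.27. Rnf2 stood at 17.3 [16.7 to 17.8] against 20.01 [19.5 to 20.6], lower in 8 of 12 libraries with a median log2 ratio of -0.10. Cbx2 was higher in cycling macrophages, 0.459 CPM [0.371 to 0.562] against 0.266 [0.208 to 0.335], in 11 of 12 libraries, as was Pcgf6, 3.82 [3.56 to 4.10] against 3.21 [3.001 to 3.43], in 10 of 12. Pcgf1 was lower, 2.85 [2.62 to 3.09] against 3.38 [3.17 to 3.61], in 8 of 12. Its median log2 ratio within libraries was only -0.09, from -0.61 to 0.44. The sums of Pcgf5 were 53.2 [52.2 to 54.3] against 56.7 [55.8 to 57.6], with 6 of 12 libraries on each side. The intervals of these 4 genes and of Rnf2 did not overlap between the states, and those of the other 4 did. Bmi1 was higher in cycling macrophages in 12 of 12 libraries by a median log2 ratio of 0.26, yet its sums were 14.002 and 14.4 CPM and gave -0.039. Whether the cycling effect differed between T cells and macrophages was not tested.

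**Figure D5:**
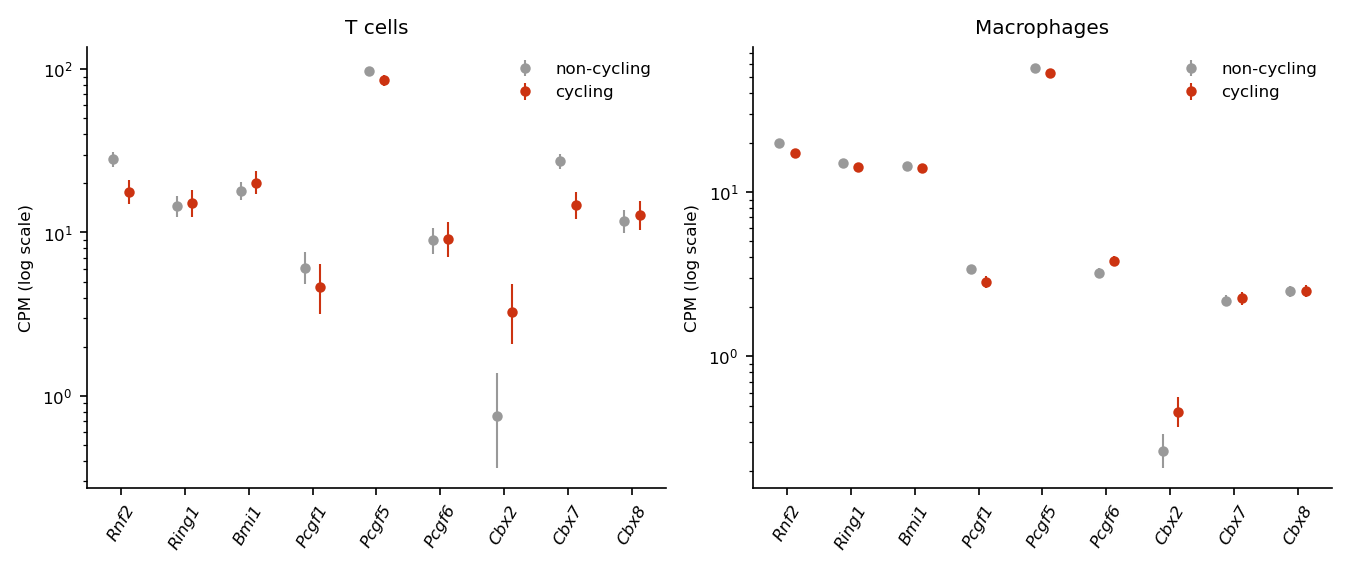
Level in CPM (y axis, log scale) of each gene in non-cycling (grey) and cycling (red) cells, in T cells (left) and macrophages (right). Points are sums over libraries and bars are 95% Poisson intervals. In T cells, cycling cells lie below for Cbx7 (14.6 against 27.3 CPM) and Rnf2 (17.8 against 28.0) and above for Cbx2 (3.25 against 0.753).

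The partners of these genes were read from fixed lists. Of 18 other PRC1 genes, 17 could be compared between T cells and macrophages, 7 were at least 2-fold higher in T cells (background 16.6%) and 0 lower (16.8%). Pcgf2, Bcorl1 and Phc1 were under 5 CPM in macrophages (2.30, 2.56 and 4.72), so they entered through T cells and could not have been called lower. The 7 were Kdm2b (4.41-fold), Pcgf2 (3.55), Phc3 (3.24), Cbx6 (2.92), Bcorl1 (2.49), Bcor (2.47) and Yaf2 (2.26), as ratios of summed CPM. Of 12 PRC2 genes, 11 could be compared, 5 were higher (Phf1 4.21-fold, Aebp2 4.11, Epop 2.31, Suz12 2.099 and Mtf2 2.103) and 0 lower, against the same background. Epop, at 3.48 CPM in macrophages, entered through T cells. Ezh2, the drug's target, stood at 79.9 CPM in T cells and 44.5 in macrophages, 1.80-fold. Of the 4 H2A deubiquitinase genes, which remove the mark that PRC1 sets, 0 passed 2-fold in either direction. The medians of these lists were 0.33 (other PRC1), 0.85 (PRC2) and 0.53 (deubiquitinases) on the log2 scale, beside 0.11 over all genes tested, and those of both PRC lists include the genes that entered through T cells. Cdkn2a, a known PRC1 target, stood at 19.2 CPM in T cells and 1.67 in macrophages, higher in T cells in 10 of 11 libraries. Its log2 ratio ran from -2.03 to 5.51 over libraries, with 1 T cell library at 0. It too passed the 5 CPM limit only through T cells.

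The genes whose levels ran most like each member were found by Pearson's r of log2(CPM + 1) over 47 points of a class in a library with at least 100 cells, among 10807 genes. Points of 1 class come from several libraries and points of 1 library share its depth, so r is a description. Cbx7 was closest to A930024E05Rik (r = 0.88), Rabgap1l and Jakmip1 (both 0.87), and Pcgf6 to Hdac8 (0.86), Fam189b and Rif1 (both 0.84). Cbx8 was closest to Paxx (0.83), Hist1h3i (0.81) and Cenpw (0.77), and Pcgf5 to Map3k14 (0.78), Ramp3 and Adam23 (both 0.76). For Bmi1 (Yeats2), Rnf2 (Tsc22d2), Ring1 (Cog1) and Pcgf1 (B230354K17Rik) the highest r was 0.72, 0.71, 0.69 and 0.74, and Cbx2 had too few UMIs (253).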

How the data were processed

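The authors deposited 1 matrix of UMI counts from 10x Genomics 3' v3 libraries, without normalization. Its header names Cell Ranger 3.0.2, whereas the submitters' processing notes name Cell Ranger 2.1.1, Seurat and mm10. Barcodes were retained if they had over 200 but under 5000 detected genes and a mitochondrial share of 10% or less, following the study's methods. A cell entered a class with UMIs of at least 2 marker genes of that class, T cells also needing a CD3 gene and NK cells lacking Cd3d, Cd3e and Trac, and macrophages and monocytes were divided by a 2-fold excess of one marker sum over the other. Cells that met more than 1 gate (with possible doublets, for which no caller was run), none, or neither side of the last rule, 29932 in all, were left out. Counts of each gene were summed per class and library and divided by all UMIs of those cells. Ratios were taken within libraries with at least 50 cells of both classes (20 for subsets and cycling states) after adding 0.5 UMI to each sum, and the median over libraries is given. Poisson and Clopper-Pearson intervals are exact at 95% and cover counting error only. UMI counts differ in depth between classes, so shares of cells were also taken after thinning to 1000 UMIs. EZH2i was not compared with vehicle, since groups were taken from labels alone and no label names the library numbers. The 9 genes, the gene lists and the markers were chosen with earlier results of these data known. All 9 genes are named, the other polycomb genes where they passed 2-fold (and Ezh2, named as the target), and the 3 most alike genes per member with at least 1000 UMIs. Coordinates are from GENCODE M21 (GRCm38), to which 30934 of the 31053 gene identifiers matched, and promoter sequences are from RefSeq (GRCm38.p6). The 2-fold counts and ratios were run on simulated Poisson counts with known folds, for T cells and macrophages only. The simulation held no variation between libraries beyond depth and counting error, so it does not cover the library spread seen here. Alternative settings used edgeR 4.0.16 (TMM), DESeq2 1.42.0 (size factors), other gates, filters, depths and subsets of libraries. Sums and intervals were computed with scipy 1.17.1 and pandas 2.3.3 in Python 3.11.15 (with numpy 2.4.6), figures with matplotlib 3.10.9, and scaling factors in R 4.3.3. Of the list of other PRC1 genes, 1 is not reported here, and the list was counted without it.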

Additional observations from a re-analysis of the deposited data

Results flagged for a closer look

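The 29932 kept cells outside the 7 classes were used in no comparison, and all 9 genes gave more UMIs there than a floor of 3 counts. Pcgf5 stood at 84.5 CPM, above its macrophage level, Rnf2 at 18.8, Bmi1 at 14.7, Ring1 at 13.95, Cbx7 at 4.63, Pcgf6 at 3.30, Pcgf1 at 3.23, Cbx8 at 3.01 and Cbx2 at 0.468. These cells include 10932 that met more than 1 gate, 2969 between macrophages and monocytes and 16031 that met none, and their makeup was not tested. No other result met the conditions for a closer look: groups of 11 or 12 libraries were not examined for single outlying values, and no member had every library on one side for cycling T cells and on the opposite side for cycling macrophages.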

How the results depend on the processing

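Apart from settings that leave out 1 library, 233 alternative values moved by less than the spread between libraries or stayed within 1.5 times the count, and 13 moved further. Under at least 1 setting the sign changed for Ring1 in T cells over macrophages (CPM and share of cells), Cbx8 in cycling T cells, and Bmi1, Pcgf5 and Cbx8 in cycling macrophages. A value within these bounds could still change sign, as for Ring1 in T cells over macrophages. All 310 values that leave out 1 library stayed within these bounds. A median over libraries moves little when 1 is left out, so this outcome was close to fixed and nothing is read from it. In cells without UMIs of the cycling genes the T cell to macrophage log2 ratio of Cbx7 was 3.68, and the sum over libraries gave -0.039 for Bmi1 in cycling against non-cycling macrophages. With 1.5-fold in place of 2-fold, 5 members were higher in T cells (29.1% of all genes tested), 1 was lower in dendritic cells (22%), and 1 was higher (18.9%) and 1 lower (54.5%) in neutrophils. Of the 5 in T cells, Pcgf1, Pcgf6, Cbx7 and Cbx8 passed the 5 CPM limit only through T cells. Without the 5 CPM limit, 3 were lower in monocytes (20.9%), and 1 was higher (17%) and 1 lower (36.9%) in neutrophils. Cbx2 was then also past 2-fold higher in T cells (4.25-fold, background 19.9%) and dendritic cells (2.25-fold, 17.4%), from 36 and 8 UMIs. Counts for NK and B cells are not given for these settings. Thinning to 500 UMIs gave shares of 12.3% and 2.96% for Pcgf5 in dendritic cells and macrophages and of 1.33% and 0.128% for Cbx7 in T cells and macrophages, lower by construction, with fold ratios close to those at 1000. TMM scaling shifted all T cell to macrophage ratios by -0.18 at the median on the log2 scale and DESeq2 size factors by -0.05. Over all settings the log2 ratio ran from 3.08 to 3.68 for Cbx7, 1.90 to 2.45 for Cbx8 and 1.21 to 2.04 for Pcgf6 in T cells over macrophages, and from 1.74 to 2.43 for Pcgf5 in dendritic cells over macrophages. Cells whose barcode occurs in 1 library only, values within libraries 1 to 6 and 7 to 12 of the subsets, and subsets of dendritic cells were added after the data had been seen. NK and B cells rest on few cells and 2 libraries, and Cbx2 on few UMIs. No paired analysis was possible because no label ties a library to a group or a replicate number, while ratios between classes were already taken within libraries. The cause of these shifts was not tested.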

Other observations

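The values of Bmi1 in macrophages ranged widely over the unassigned libraries. In libraries 1 to 12 in order it stood at 8.17, 10.2, 10.7, 24.8, 20.3, 16.5, 13.1, 9.43, 7.18, 19.7, 16.5 and 19.7 CPM. Each value rests on 317 to 1301 UMIs. In T cells the same libraries gave 9.30, 19.7, 12.01, 42.9 (5 UMIs in 41 cells), 30.04, 17.8, 21.6, 19.5, 13.1, 14.6, 18.5 and 18.4 CPM.

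Cbx8 in T cells stood at 14.5, 11.7, 16.7, 0 (41 cells), 12.9, 5.23, 15.7, 15.2, 12.5, 0, 6.73 and 1.42 CPM in libraries 1 to 12 in order. The interval of library 4 reached 31.6 CPM. In macrophages Cbx8 stood at 3.11, 3.49, 2.31, 2.23, 2.27, 1.79, 2.62, 3.02, 2.97, 1.79, 1.60 and 2.11 CPM in the same order. The part of treatment in these values was not tested.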
